A study of Mus musculus with 35 samples.

Results

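Serine and one-carbon metabolism was followed through 9 genes, Phgdh, Psat1, Psph, Shmt2, Mthfd2, Mthfd1l, Shmt1, Mthfd1 and Tyms, of the 49671 genes counted in mouse lin- HSPCs (bone marrow cells depleted of mature blood lineages and so enriched for hematopoietic stem and progenitor cells). The genes were picked by name. The choice also used measured values, since Shmt1 had been seen to be higher with each of the 6 constructs than with the empty vector. For that reason levels and fold changes against the empty vector are given as a description without p-values, and the tests of members are those between constructs. All 9 genes passed the filter on low counts, together with 17166 genes in all.

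The libraries fell into 7 groups of 5. The Empty group carried the vector with mCherry alone, and the other groups also expressed an mEGFP-tagged version of NHX9, the NUP98-HOXA9 fusion oncoprotein of acute leukemia, in which the FG-repeat-rich N-terminal part of the nucleoporin NUP98 is joined to the DNA-binding homeodomain of HOXA9. G-NHX9 was the full-length fusion, G-NHX9-8FA had phenylalanines in FG motifs changed to alanine, and G-NHX9-21FGAA had FG motifs changed to AA in the C-terminal portion of the NUP98 part. G-NHX9-midi was a shortened fusion, G-NHX9-midi-21FGAA the same shortened fusion with the FG-to-AA changes, and G-NHX9-DDNA carried homeodomain changes that weaken DNA binding. All cells came from C57Bl/6 mice, labelled as 8 weeks old apart from 3 libraries. These were Empty replicates 4 (9 weeks) and 5 (10 weeks) and G-NHX9 replicate 1 (11 weeks), so the older ages fall in these groups only. The cells were transduced with lentivirus, sorted for the fluorescent proteins and grown for 1 week in methylcellulose with cytokines. The constructs were expressed from a viral vector in sorted cells, so each library is a mixture of the cells that grew out, and fewer cells of a type cannot be told apart from less RNA per cell.

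Cells build serine from the glycolytic intermediate 3-phosphoglycerate through PHGDH, PSAT1 and PSPH. Serine hydroxymethyltransferase then passes a carbon unit from serine to tetrahydrofolate, in mitochondria (SHMT2) or in the cytosol and nucleus (SHMT1). In mitochondria MTHFD2 and MTHFD1L oxidize that unit and release it as formate, and in the cytosol MTHFD1 takes up formate for purine synthesis and, with thymidylate synthase (TYMS), for the thymidine of DNA. The genes of serine synthesis and the mitochondrial arm are known targets of ATF4, the transcription factor of the amino acid response, and Tyms is known as an S-phase gene.

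Total counts were between 31559914 and 75810659 per library. All values below are CPM (read counts scaled to a common library size) after TMM scaling, and differences are log2 fold changes with their SE from 1 edgeR model of the 35 libraries. Adjusted p-values are those of its quasi-likelihood test over all 17166 genes, and a gene was called at an adjusted p under 0.05. The summed CPM of 13 stem and progenitor markers was between 557.1 and 1160 per library and that of 11 late neutrophil markers between 5666 and 33840, so markers of maturing myeloid cells were detected beside those of the labelled progenitors. Libraries numbered 4 and 5 differed from those numbered 1 to 3 in several groups. In G-NHX9, Mthfd2 was at 134.4, 142.9 and 151.4 CPM in replicates 1 to 3 and at 69.53 and 62.97 CPM in replicates 4 and 5. The labels do not say what the number stands for, and each count of called members between constructs is therefore also given for libraries 1 to 3 (21 libraries) and 4 and 5 (14 libraries) where it moved by over 1.5 times.

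In the Empty group the 9 transcripts differed widely in level per kilobase of exon. Phgdh was highest, at 50.5 ± 12.4 CPM per kilobase (SD, n = 5), followed by Mthfd2 at 34.99 ± 7.77 and Psat1 at 27.9 ± 2.95. Shmt2 was at 13.5 ± 2.10, Mthfd1 at 9.42 ± 1.59 and Mthfd1l at 7.34 ± 1.27 CPM per kilobase. Psph (3.57 ± 0.384), Tyms (3.27 ± 0.663) and Shmt1 (2.25 ± 0.617) were lowest. Exon lengths are those of all annotated isoforms joined, which understates the level of a gene with long, little-used isoforms.

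Shmt1, the cytosolic and nuclear serine hydroxymethyltransferase (chromosome 11, 60788104 to 60811718, minus strand, GRCm38), is the member on which the choice rested. It was at 12.59, 6.199, 9.08, 7.83 and 7.90 CPM in the 5 Empty libraries. The G-NHX9 libraries held 23.46, 30.97, 26.76, 27.32 and 30.25 CPM. The G-NHX9-midi libraries held 23.50, 33.04, 29.15, 19.12 and 28.47 CPM. Every library of these constructs was above every Empty library. The G-NHX9-8FA libraries were at 18.55, 16.59, 18.98, 23.96 and 26.43 CPM, and the G-NHX9-21FGAA libraries at 16.03, 18.16, 18.77, 27.85 and 31.27 CPM. The G-NHX9-DDNA libraries were at 24.02, 26.71, 24.48, 19.73 and 15.07 CPM, and the G-NHX9-midi-21FGAA libraries at 14.83, 16.38, 18.24, 17.24 and 17.86 CPM. The lowest library of any construct, at 14.83 CPM, thus lay above the highest Empty library. By group mean the order was G-NHX9 (27.8 ± 3.01 CPM), G-NHX9-midi (26.7 ± 5.41), G-NHX9-21FGAA (22.4 ± 6.71), G-NHX9-DDNA (22.0 ± 4.62), G-NHX9-8FA (20.9 ± 4.12), G-NHX9-midi-21FGAA (16.9 ± 1.36) and Empty (8.72 ± 2.40). The ranges of neighbours in this order overlapped except for G-NHX9-midi-21FGAA and Empty. The log2 fold change against Empty was 1.67 (SE 0.189) in G-NHX9 and 0.95 (SE 0.186) in G-NHX9-midi-21FGAA, the extremes of the 6.

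**Figure D1:**
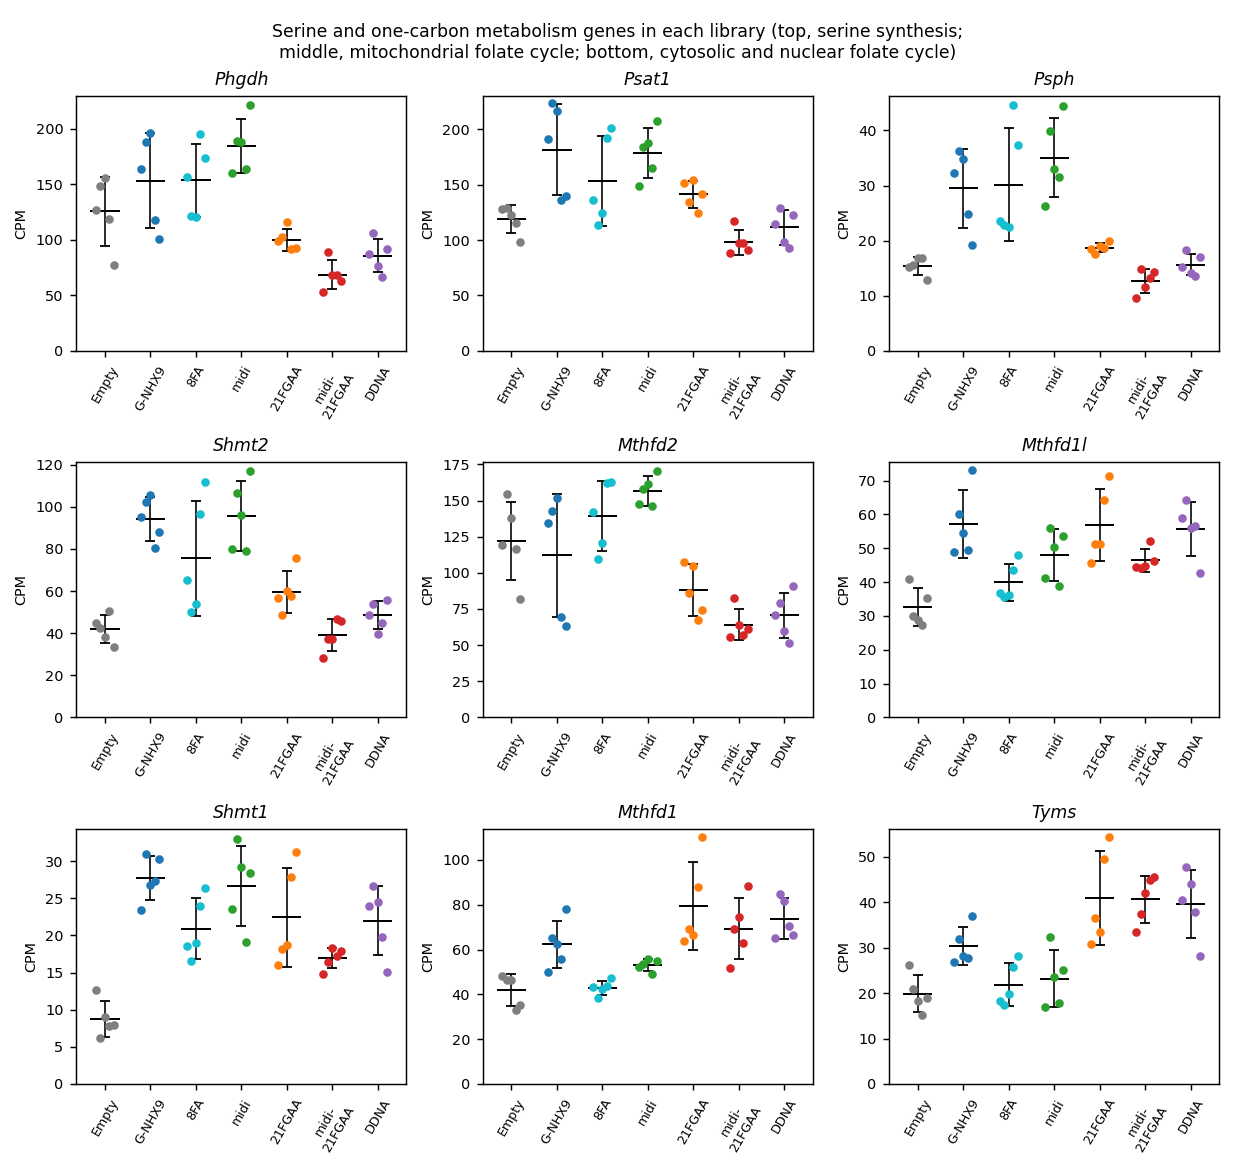
Level of each of the 9 genes in CPM (y axis) in the 5 libraries of each of the 7 groups (x axis, construct names shortened), with points for libraries from replicate 1 at the left to 5 at the right, lines for means and bars for SD. Shmt1 in every construct library lies above the Empty libraries, Phgdh, Psph and Mthfd2 are lowest on average in G-NHX9-midi-21FGAA, and Tyms is near 40 CPM in the groups with 21FGAA or DDNA.

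Of the other members, Shmt2 and Psph had the largest log2 fold changes against Empty in G-NHX9 (1.17 and 0.93), G-NHX9-8FA (0.85 and 0.96) and G-NHX9-midi (1.19 and 1.18). Tyms and Mthfd1 had the largest rises in G-NHX9-21FGAA (1.04 and 0.93), G-NHX9-midi-21FGAA (1.03 and 0.73) and G-NHX9-DDNA (0.995 and 0.82). Phgdh and Mthfd2 were on average below Empty in G-NHX9-21FGAA, G-NHX9-midi-21FGAA and G-NHX9-DDNA. In G-NHX9-midi-21FGAA their log2 fold changes, -0.88 and -0.93, were larger in size than that of Mthfd1. Phgdh was at 85.8 ± 15.2 CPM in G-NHX9-DDNA and 68.4 ± 13.1 in G-NHX9-midi-21FGAA, against 125.5 ± 30.8 in Empty. Mthfd1l, Shmt1, Mthfd1 and Tyms were above Empty in the latter 2 groups, with log2 fold changes from 0.51 to 1.33. The model of all genes also counted members as called against Empty, and because the members were chosen on these contrasts and Shmt1 is in each count, nothing is read from the counts. They were 7 of 9 in G-NHX9 (32.1% of all genes tested were called), 3 in G-NHX9-8FA (26.6%), 7 in G-NHX9-midi (40.5%), 5 in G-NHX9-21FGAA (27.1%), 6 in G-NHX9-midi-21FGAA (16.9%) and 6 in G-NHX9-DDNA (17.2%).

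The 3 serine synthesis genes were compared between constructs first. Phgdh (chromosome 3, 98313170 to 98339990, minus strand) encodes the first enzyme of the pathway. It held 160.1, 188.4, 188.2, 164.0 and 221.3 CPM in the G-NHX9-midi libraries and 53.43, 89.05, 68.72, 68.23 and 62.59 CPM in the G-NHX9-midi-21FGAA libraries. These groups did not overlap, and Phgdh fell by 1.43 on the log2 scale (SE 0.182, adjusted p = 9.4e-08). Psph, the phosphatase of the last step, was at 26.27, 39.97, 33.04, 31.61 and 44.48 CPM in G-NHX9-midi and at 9.53, 14.85, 11.64, 13.18 and 14.35 CPM in G-NHX9-midi-21FGAA. It fell by 1.46 (SE 0.178, adjusted p = 4.2e-08), again without overlap. Psat1, the aminotransferase between them, went from 178.4 ± 22.4 CPM to 98.1 ± 11.2 CPM and fell by 0.86 (SE 0.147, adjusted p = 1.3e-05).

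The mitochondrial folate enzymes split. Shmt2 was at 80.10, 106.8, 95.98, 79.00 and 116.8 CPM in G-NHX9-midi and at 28.11, 37.44, 37.32, 46.63 and 45.60 CPM in G-NHX9-midi-21FGAA, and fell by 1.29 (SE 0.177, adjusted p = 3.4e-07). Mthfd2 was at 147.3, 157.7, 161.3, 146.1 and 170.6 CPM against 55.76, 82.64, 63.97, 57.03 and 61.18 CPM, and fell by 1.29 (SE 0.203, adjusted p = 4.1e-06). Neither gene's groups overlapped. Mthfd1l, which makes formate from the product of MTHFD2, differed by -0.05 (95% interval -0.33 to 0.23, adjusted p = 0.80), with 48.0 ± 7.59 CPM in G-NHX9-midi and 46.4 ± 3.33 in G-NHX9-midi-21FGAA.

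In the cytosolic and nuclear arm the members moved in opposite directions in this same comparison. Shmt1 fell by 0.66 (SE 0.183, adjusted p = 0.0040), and its groups did not overlap. Tyms was at 17.02, 32.44, 23.52, 17.81 and 24.97 CPM in G-NHX9-midi and at 33.50, 37.32, 42.09, 44.84 and 45.55 CPM in G-NHX9-midi-21FGAA. It rose by 0.81 (SE 0.179, adjusted p = 4e-04), also without overlap. Mthfd1 rose by 0.38 (SE 0.140, adjusted p = 0.025), from 53.1 ± 2.64 to 69.3 ± 13.5 CPM with overlapping libraries, and its call was lost without G-NHX9-midi replicate 4 (adjusted p = 0.052) or without G-NHX9-midi-21FGAA replicate 3 (0.058) or 5 (0.099). In all, 6 members fell and 2 rose, beside 43.2% of all genes called. Libraries 1 to 3 alone called 7 members (38.8% of all genes) and libraries 4 and 5 alone 7 (31.2%). Of the markers, all 14 erythroid ones tested rose (median log2 fold change 5.91), beside the same 43.2%. So did all 9 mast cell and basophil and 6 of 7 eosinophil markers, while 1 eosinophil marker fell. Of 11 late neutrophil markers 2 rose and 5 fell, and all 4 early granule markers fell. Of 10 macrophage markers 3 rose, and of 13 stem and progenitor markers 8 rose and 4 fell. The part of these lists in the members' differences was not tested.

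The FG-to-AA changes in the full-length fusion gave smaller differences. Between G-NHX9-21FGAA and G-NHX9, 3 members fell and none rose, beside 17.2% of all genes called. Shmt2 was at 56.58, 48.44, 59.83, 57.65 and 75.91 CPM in G-NHX9-21FGAA and at 95.39, 102.2, 105.5, 80.26 and 88.12 CPM in G-NHX9, without overlap, and fell by 0.66 (SE 0.175, adjusted p = 0.0066). Psph fell by 0.65 (SE 0.175, adjusted p = 0.0074), from 32.24, 36.20, 34.88, 24.85 and 19.30 CPM in G-NHX9 to 18.54, 17.58, 19.04, 18.75 and 19.86 CPM. Its 5 mutant libraries lay close together while G-NHX9 replicate 5 reached into their range. Phgdh fell by 0.61 (SE 0.179, adjusted p = 0.014), and the call was lost without G-NHX9 replicate 2 (adjusted p = 0.072) or 3 (0.060). Psat1, Mthfd2 and Shmt1 had log2 fold changes of -0.36, -0.35 and -0.31 that did not pass the test, and Mthfd1 and Tyms of 0.35 and 0.43 that did not either (adjusted p = 0.082 and 0.098). When libraries were paired by number as a replicate block, as their deviations warranted in this comparison, Mthfd1 passed (log2 fold change 0.35, adjusted p = 0.045). Mthfd1 and Tyms also passed without G-NHX9 replicate 5 or G-NHX9-21FGAA replicate 1, Mthfd1 without G-NHX9-21FGAA replicate 3 and Psat1 without G-NHX9 replicate 4 (-0.43). Libraries 1 to 3 called 6 members lower (15.9% of all genes called), and libraries 4 and 5 called 1 member, Tyms, higher (10.3%).

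Whether the FG-to-AA changes acted differently in the full-length and the shortened fusion was tested as the difference of the 2 effects. The full-length mutant keeps N-terminal FG motifs that the shortened fusion lacks, so the changes do not remove the same share of the motifs. The effect was less negative in the full-length fusion for Phgdh by 0.82 (SE 0.252, adjusted p = 0.028), for Psph by 0.81 (SE 0.247, adjusted p = 0.026) and for Mthfd2 by 0.94 (SE 0.284, adjusted p = 0.025). These 3 of 9 members were called beside 12.6% of all genes. For the other members the difference ranged from -0.38 for Tyms to 0.63 for Shmt2 and did not pass. The calls depended on single libraries. None of the 3 remained without G-NHX9 replicate 4 (adjusted p from 0.051 to 0.058), and 1 remained without G-NHX9 replicate 5, G-NHX9-21FGAA replicate 3 or G-NHX9-midi replicate 5. Without G-NHX9-21FGAA replicate 1, G-NHX9-midi replicate 2 or G-NHX9-midi-21FGAA replicate 1, 1 call each was lost (Mthfd2, Psph and Phgdh).

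Weakened DNA binding was compared with the same G-NHX9 libraries, so this comparison shares them with the one above. In G-NHX9-DDNA 5 members fell and none rose, beside 22.1% of all genes called. All 3 serine synthesis genes were among them. Phgdh was at 87.55, 106.3, 76.82, 66.36 and 92.08 CPM against 163.6, 188.0, 196.2, 117.5 and 100.5 CPM in G-NHX9 and fell by 0.84 (SE 0.179, adjusted p = 0.00076). Psat1 fell by 0.70 (SE 0.146, adjusted p = 0.00054) and Psph by 0.91 (SE 0.176, adjusted p = 0.00021), each without overlap. Shmt2, at 48.86, 54.03, 39.76, 44.77 and 55.55 CPM, fell by 0.96 (SE 0.176, adjusted p = 0.00011). Mthfd2 fell by 0.67 (SE 0.201, adjusted p = 0.014). In the fit of these groups alone its log2 fold change was the same, -0.67, but the call was lost (adjusted p = 0.086). The call was also lost at -0.56 without G-NHX9 replicate 2, at -0.54 without G-NHX9 replicate 3, at -0.56 without G-NHX9-DDNA replicate 4 (adjusted p from 0.062 to 0.064) and at -0.59 without G-NHX9 replicate 1. Mthfd1l (-0.04), Shmt1 (-0.34), Mthfd1 (0.24) and Tyms (0.39) did not pass in the fit of all libraries. Tyms passed without G-NHX9-DDNA replicate 5 (0.50). In libraries 1 to 3 Mthfd1 (0.40, adjusted p = 0.025) and Tyms (0.63, adjusted p = 0.014) passed as higher. Libraries 4 and 5 alone called 1 member, Shmt1, lower (-0.73), beside 11.1% of all genes, and there Mthfd2 differed by 0.10.

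**Figure D2:**
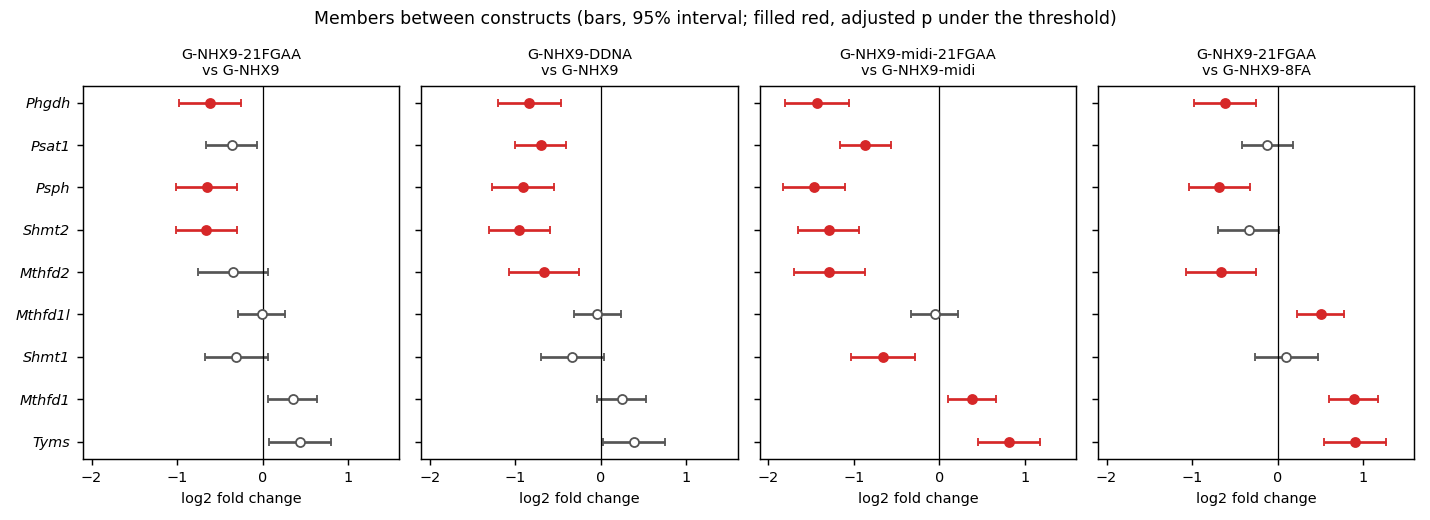
Log2 fold change (x axis) of the 9 genes (y axis) in 4 comparisons between constructs, with points for estimates, bars for 95% intervals and filled red points for adjusted p under 0.05. Phgdh, Psph and Shmt2 lie left of 0 in each panel, from -0.34 to -1.46, whereas Mthfd1 and Tyms lie right of 0, from 0.24 to 0.91.

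The G-NHX9-8FA construct was also compared with G-NHX9. Mthfd1l and Mthfd1 fell, 2 of 9 members beside 14.5% of all genes called, and no member rose. Mthfd1l was at 36.72, 35.75, 36.07, 43.47 and 47.98 CPM in G-NHX9-8FA and at 49.00, 60.19, 54.54, 49.38 and 73.17 CPM in G-NHX9 and fell by 0.52 (SE 0.136, adjusted p = 0.0085). Mthfd1 was at 43.36, 38.53, 42.21, 43.65 and 47.09 CPM against 50.03, 64.99, 62.51, 55.91 and 77.87 CPM and fell by 0.54 (SE 0.140, adjusted p = 0.0085). Neither overlapped. Tyms (-0.47), Shmt1 (-0.41), Shmt2 (-0.32) and Psat1 (-0.24) were also lower and Mthfd2 (0.31) higher, without passing. Tyms passed without TMM scaling (-0.60, adjusted p = 0.029), and Tyms and Shmt2 without G-NHX9-8FA replicate 5 (-0.58 and -0.51). Phgdh and Psph had log2 fold changes of 0.003 (95% interval -0.36 to 0.37) and 0.03 (-0.32 to 0.39). Libraries 1 to 3 called 7 members lower (11.0% of all genes called). Libraries 4 and 5 called 3 higher (12.8%), Phgdh (0.76), Psph (0.89) and Mthfd2 (1.29). The direction for Psph thus turned with the libraries used (-0.59 in libraries 1 to 3). In this same comparison all 14 erythroid markers tested fell (median log2 fold change -3.56), as did 6 of 7 eosinophil markers and 13 of 20 cell cycle genes. Of 11 late neutrophil markers 8 rose (median 1.11), and of 13 stem and progenitor markers 7 fell and 1 rose. The part of these lists in the members' differences was not tested.

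Against G-NHX9-8FA, G-NHX9-21FGAA was lower in Phgdh, Psph and Mthfd2 and higher in Mthfd1l, Mthfd1 and Tyms, 6 of 9 members beside 32.4% of all genes called. The FG-motif changes of these fusions are different, so they are compared here as constructs, not as doses. Tyms was at 30.75, 36.57, 33.51, 49.44 and 54.24 CPM in G-NHX9-21FGAA against 18.29, 17.32, 19.78, 25.83 and 28.11 CPM in G-NHX9-8FA and rose by 0.91 (SE 0.180, adjusted p = 2e-04). Mthfd1 rose by 0.89 (SE 0.141, adjusted p = 9.1e-06), from the 8FA values given above to 63.90, 69.17, 66.31, 88.06 and 110.1 CPM. The lowest G-NHX9-21FGAA library was above the highest G-NHX9-8FA library for both genes. Mthfd1l rose by 0.51 (adjusted p = 0.0043), while Phgdh fell by 0.62 (adjusted p = 0.0080), Psph by 0.69 (adjusted p = 0.0029) and Mthfd2 by 0.66 (adjusted p = 0.011). Phgdh lost its call without G-NHX9-8FA replicate 4 (adjusted p = 0.051), and libraries 1 to 3 called only the 3 members that rose (25.0% of all genes).

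Shortening the fusion gave no called member. Between G-NHX9-midi and G-NHX9, edgeR called 0 of 9 beside 19.7% of all genes, with 2 members at an unadjusted p under 0.05, Mthfd2 (0.48, 95% interval 0.07 to 0.89) and Tyms (-0.39, -0.75 to -0.02). DESeq2 also called 0. Without G-NHX9 replicate 2 or 3 Mthfd2 passed (0.60 and 0.61), as Tyms did without G-NHX9-midi replicate 2 (-0.54). Libraries 4 and 5 called 3 members higher, Phgdh, Psph and Mthfd2, beside 17.4% of all genes called in that fit. Of the marker lists, 13 of 14 erythroid, 6 of 7 eosinophil and 7 of 20 cell cycle genes fell in G-NHX9-midi against G-NHX9. Of 11 late neutrophil markers 6 rose and 2 fell there, and of 13 stem and progenitor markers 2 rose and 7 fell. Between G-NHX9-midi and G-NHX9-8FA, edgeR and DESeq2 called 0 of 9, beside 4.25% of all genes, with 1 member, Mthfd1 (0.31, 95% interval 0.02 to 0.59), at an unadjusted p under 0.05. Its G-NHX9-midi libraries all lay above the G-NHX9-8FA libraries, and it passed in the fit of these groups alone (adjusted p = 0.048). Libraries 1 to 3 called 6 members higher, beside 13.3% of all genes called in that fit.

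The constructs were also pooled as G-NHX9, G-NHX9-8FA and G-NHX9-midi (15 libraries) against G-NHX9-21FGAA, G-NHX9-midi-21FGAA and G-NHX9-DDNA (15 libraries). The split follows the paper, which describes the constructs of the first set as inducing a myeloid phenotype. The test compares averages of group means. Its SE and p-values measure the spread between libraries of the same construct, not the spread between constructs. In the first set Phgdh was higher by 0.96 (SE 0.104, adjusted p = 1.9e-09), Psph by 1.02 (SE 0.102, adjusted p = 3.4e-10), Shmt2 by 0.86 (SE 0.101, adjusted p = 1e-08), Mthfd2 by 0.87 (SE 0.116, adjusted p = 1.3e-07) and Psat1 by 0.56 (SE 0.084, adjusted p = 1.1e-06). In 14 of the 15 libraries of the first set Phgdh and Psph were above all 15 libraries of the second. Shmt1 was higher by 0.30 (SE 0.105, adjusted p = 0.018), a call lost without TMM scaling (adjusted p = 0.056) or without G-NHX9-21FGAA replicate 2 (0.052). Tyms was lower by 0.70 (SE 0.103, adjusted p = 7.7e-07), and 12 of the 15 libraries of the first set lay below all of the second. Mthfd1 was lower by 0.50 (SE 0.081, adjusted p = 3.1e-06). Mthfd1l, lower by 0.14 (SE 0.078), did not pass (adjusted p = 0.14) except without G-NHX9 replicate 5 (0.031). These 8 of 9 calls stand beside 53.0% of all genes called in the pooled comparison. Libraries 1 to 3 (49.2% of all genes) and libraries 4 and 5 (42.1%) each gave the same counts, 6 higher and 2 lower.

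Over the 35 libraries the members are described in sets that were noticed after their values were seen and that were not cleanly apart. Pearson's r of log2 CPM between Phgdh, Psat1, Psph, Shmt2 and Mthfd2 was between 0.60 and 0.94 in their 10 pairs, and between Mthfd1l, Shmt1, Mthfd1 and Tyms between 0.47 and 0.89 in their 6 pairs. With group means removed, the ranges were 0.45 to 0.90 and 0.61 to 0.91. Mthfd1l, a mitochondrial enzyme, therefore varied with the cytosolic and nuclear genes (r = 0.80 with Tyms) and not with its partner Mthfd2 (r = -0.38). Pairs across the sets had an r between -0.67 and 0.68, and between -0.26 and 0.51 with group means removed. The highest was that of Shmt1 and Shmt2, which catalyse the same reaction in different compartments. It exceeded those of Shmt1 with Mthfd1 (0.52) and Tyms (0.47), but with group means removed these were 0.65 and 0.86, against 0.47 with Shmt2. In the pooled comparison Shmt1 also went the way of Phgdh and not of Mthfd1 and Tyms. The points share library, depth and construct group, and these correlations are a description. Between-group differences made up from 67.1% (Mthfd1l) to 80.3% (Psph) of the variance of log2 CPM.

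**Figure D3:**
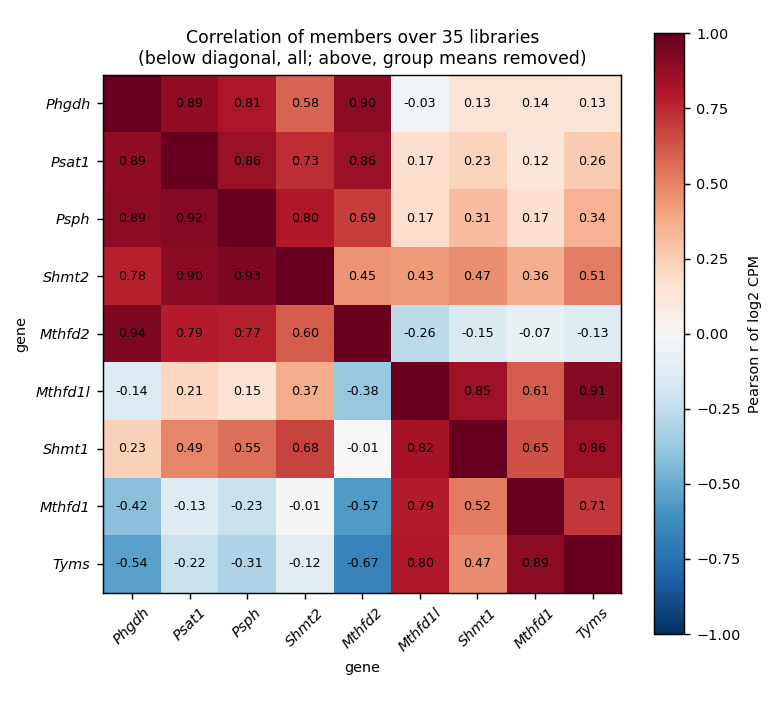
Pearson's r of log2 CPM between each pair of the 9 genes (both axes) over 35 libraries, with the color scale from -1 to 1, all libraries below the diagonal and group means removed above it. The first 5 genes correlate at 0.60 or more with each other and the last 4 at 0.47 or more. Across these, Mthfd2 with Tyms is at -0.67 and Shmt2 with Shmt1 at 0.68.

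Ratios within a library do not depend on how libraries are scaled. The ratio of Mthfd2 to Mthfd1 CPM was 2.93 ± 0.526 in Empty, 3.23 ± 0.379 in G-NHX9-8FA and 2.95 ± 0.1098 in G-NHX9-midi. It was 1.19 ± 0.461 in G-NHX9-21FGAA, 0.946 ± 0.195 in G-NHX9-midi-21FGAA and 0.972 ± 0.268 in G-NHX9-DDNA. The highest library of the last 3 groups, at 1.69, was below the lowest of the first 3, at 2.32. G-NHX9 covered both, with 2.69, 2.20 and 2.42 in replicates 1 to 3 and 1.24 and 0.809 in replicates 4 and 5. The ratio of Shmt2 to Shmt1 was highest in Empty, at 5.06 ± 1.48, between 3.43 and 3.63 on average in G-NHX9, G-NHX9-8FA and G-NHX9-midi, and 2.78 ± 0.585, 2.30 ± 0.338 and 2.33 ± 0.794 in G-NHX9-21FGAA, G-NHX9-midi-21FGAA and G-NHX9-DDNA.

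**Figure D4:**
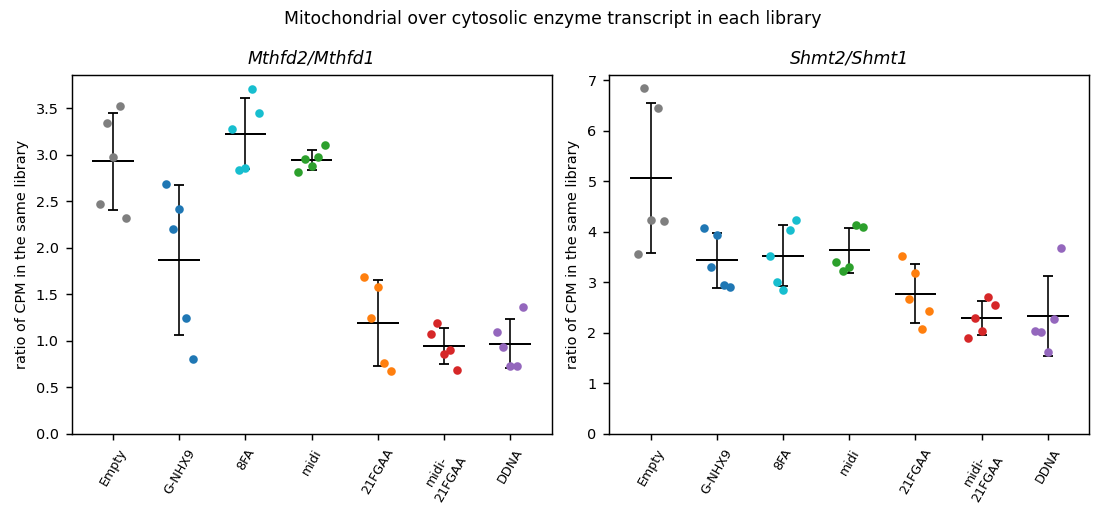
Ratio of the CPM of the mitochondrial to that of the cytosolic enzyme's transcript within each library (y axis) by group (x axis, 5 points a group, lines for means, bars for SD), for Mthfd2 over Mthfd1 and Shmt2 over Shmt1. The first ratio is above 2.3 in every Empty, G-NHX9-8FA and G-NHX9-midi library and below 1.7 in every 21FGAA, midi-21FGAA and DDNA library.

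Promoter sequences are shown for Phgdh, Psat1 and Mthfd2, as members that moved together, and for Shmt1, on which the choice rested. They are RefSeq windows of GRCm38.p6, from 250 bases before to 50 after a start site, 5′ to 3′ on the gene's strand (minus for all), at chr3:98339920-98340219, chr19:15925010-15925309, chr6:83317555-83317854 and chr11:60811216-60811515 in this order. Capitals mark CCAAT and its reverse complement ATTGG.
Phgdh: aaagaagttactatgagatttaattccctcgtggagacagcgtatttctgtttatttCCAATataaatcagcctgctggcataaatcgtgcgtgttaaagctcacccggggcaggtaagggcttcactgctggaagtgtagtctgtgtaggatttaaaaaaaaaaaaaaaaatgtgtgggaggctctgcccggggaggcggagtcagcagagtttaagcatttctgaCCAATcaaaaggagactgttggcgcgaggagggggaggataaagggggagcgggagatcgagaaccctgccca
Psat1: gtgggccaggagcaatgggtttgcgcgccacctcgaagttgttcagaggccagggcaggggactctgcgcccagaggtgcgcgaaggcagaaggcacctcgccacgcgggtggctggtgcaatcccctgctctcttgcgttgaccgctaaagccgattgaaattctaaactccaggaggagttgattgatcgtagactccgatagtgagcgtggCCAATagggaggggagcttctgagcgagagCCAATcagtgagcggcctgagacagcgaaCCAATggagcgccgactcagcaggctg
Mthfd2: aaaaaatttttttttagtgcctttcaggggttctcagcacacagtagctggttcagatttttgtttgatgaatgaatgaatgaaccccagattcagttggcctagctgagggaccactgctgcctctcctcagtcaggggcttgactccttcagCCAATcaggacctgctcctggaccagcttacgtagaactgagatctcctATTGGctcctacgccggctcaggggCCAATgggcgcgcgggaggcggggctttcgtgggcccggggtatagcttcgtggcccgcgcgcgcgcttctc
Shmt1: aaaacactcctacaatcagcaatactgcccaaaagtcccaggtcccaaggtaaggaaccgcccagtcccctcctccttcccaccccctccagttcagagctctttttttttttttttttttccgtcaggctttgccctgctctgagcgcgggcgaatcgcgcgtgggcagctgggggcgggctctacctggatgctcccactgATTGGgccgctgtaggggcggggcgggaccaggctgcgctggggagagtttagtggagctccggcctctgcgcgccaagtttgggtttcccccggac
The motif occurred 2 times in the Phgdh window, 3 times in the Psat1 window shown, 3 times in that of Mthfd2 and 1 time in that of Shmt1. Psph held it 2 times and Mthfd1 1 time, and the windows of Shmt2, Mthfd1l and Tyms did not hold it. It was present in 37.4% of all 32817 promoter windows. TGATGNAA, the core of the element that ATF4 and C/EBP proteins bind, was searched on both strands and stood in none of the 10 windows of the 9 members and in 3.97% of all windows. The E-box CACGTG was found in Tyms alone (7.15% of all windows), and the E2F-type motifs TTTGGCGC (0.515%) and TTTCCCGC (1.07%) in none. The absence of these letters from a window says nothing of sites elsewhere, such as introns.

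Genes of the amino acid response, a list of 26 that includes Asns, Chac1 and Trib3, moved with the first set in some comparisons and not in others. Their summed CPM was 4071 ± 167 in G-NHX9-midi and 2262 ± 129 in G-NHX9-midi-21FGAA, where 24 of the 26 fell and none rose, beside 43.2% of all genes called (median log2 fold change -0.93, against -0.02 over all genes tested). In the pooled comparison 22 were higher and 1 lower in G-NHX9, G-NHX9-8FA and G-NHX9-midi (53.0% of all genes called), and in the difference of the 21FGAA effects 14 were called, all in the sense of Mthfd2 (12.6%). Against G-NHX9, 10 of the 26 rose and none fell in G-NHX9-midi (19.7% of all genes called). In G-NHX9-8FA 6 rose and none fell (14.5%). No member was called higher in either of these comparisons in the fit of all libraries. Stc2, a secreted glycoprotein of the stress response, went from 18.8 ± 3.80 CPM in G-NHX9-midi to 2.71 ± 0.909 and fell by 2.79 (SE 0.215, adjusted p = 3.5e-12). Chac1, a glutathione-degrading enzyme, fell by 2.60 (SE 0.364, adjusted p = 5.2e-07). Trib3, a pseudokinase induced under ATF4, was at 30.1 ± 15.2 CPM in G-NHX9 and 75.6 ± 23.3 in G-NHX9-8FA, a rise of 1.33 (SE 0.278, adjusted p = 0.0011), and at 92.4 ± 22.7 in G-NHX9-midi, a rise of 1.62 (adjusted p = 6.5e-05). Cebpg, a leucine zipper partner of ATF4, rose by 0.67 in G-NHX9-midi against G-NHX9 (adjusted p = 4.4e-05), and Ddit3 by 1.19 in G-NHX9-8FA (adjusted p = 0.0076). Pycr1, of proline synthesis, fell by 1.32 in G-NHX9-21FGAA (adjusted p = 0.0058) and by 1.70 in G-NHX9-DDNA (adjusted p = 0.00045) against G-NHX9.

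Mthfd2 had an r of 0.96 with the summed level of this list over the 35 libraries and of 0.94 with group means removed. For Phgdh these were 0.89 and 0.79, and for Shmt2 0.56 and 0.25. The summed level of 20 cell cycle genes moved with the other set. Tyms had an r of 0.94 with it (0.82 with group means removed), Mthfd1l of 0.83 (0.80), Mthfd1 of 0.82 (0.43) and Shmt1 of 0.54 (0.84). In the pooled comparison 19 of the 20 cell cycle genes were lower in G-NHX9, G-NHX9-8FA and G-NHX9-midi (53.0% of all genes called), and in G-NHX9-midi-21FGAA against G-NHX9-midi 10 rose (43.2%). Between G-NHX9-8FA and G-NHX9 13 fell (14.5%), and between G-NHX9-21FGAA and G-NHX9-8FA 17 rose (32.4%). Their median log2 fold change was 0.11 in G-NHX9-21FGAA and 0.13 in G-NHX9-DDNA against G-NHX9. Neither list is independent of the members' libraries, and the part of cell division or of the stress response in the members' levels was not tested.

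**Figure D5:**
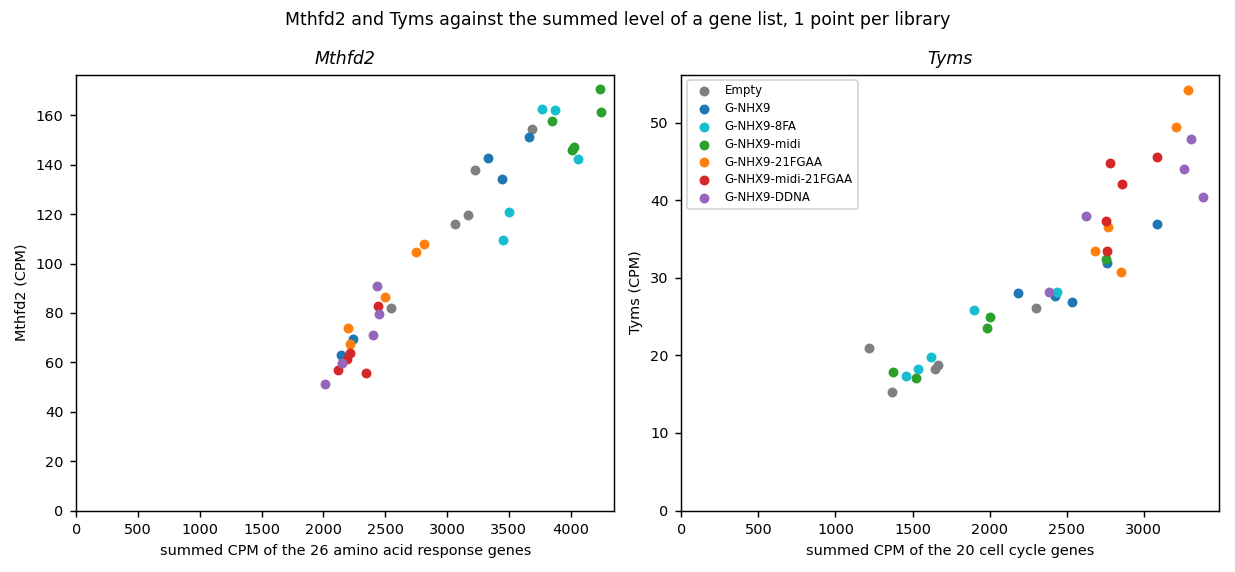
Mthfd2 against the summed CPM of 26 amino acid response genes (left) and Tyms against that of 20 cell cycle genes (right), in CPM on linear axes with 1 point per library colored by group. Mthfd2 follows the first list (r = 0.96 of log2 values) and Tyms the second (r = 0.94).

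The genes closest to Shmt1 over the 35 libraries, among the 10307 tested genes that averaged 5 CPM or more, were Ctps (r = 0.943), Ubash3a (0.942), Tfdp1 (0.939), Impdh2 (0.937) and Cdc45 (0.928). Those closest to Phgdh were Mars (0.974), Yars (0.961), Gars (0.950), Gpt2 (0.950) and Mrpl19 (0.948). Mthfd2 was closest to Asns (0.987), Cars (0.977), Mars (0.968), Uqcrq (0.958) and Chac1 (0.954).

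Of 45 other genes of folate, serine, methionine and deoxynucleotide metabolism, 36 passed the filter. In G-NHX9-midi-21FGAA against G-NHX9-midi 11 fell and 7 rose (43.2% of all genes called), and in the pooled comparison 12 were higher and 9 lower in G-NHX9, G-NHX9-8FA and G-NHX9-midi (53.0%). Median log2 fold changes of the 36 stayed between -0.16 and 0.17 in the comparisons between constructs. The paired enzymes that oxidize 10-formyltetrahydrofolate went opposite ways. Aldh1l1, the cytosolic one, was between 3.87 and 8.23 CPM in every G-NHX9, G-NHX9-8FA and G-NHX9-midi library and between 11.9 and 20.7 CPM in every library of the other 3 constructs, a log2 fold change of -1.45 in the pooled comparison (SE 0.073, adjusted p = 3.8e-17). It rose by 1.84 in G-NHX9-midi-21FGAA against G-NHX9-midi (SE 0.129, adjusted p = 4.1e-13). Aldh1l2, the mitochondrial one, was at 19.6 ± 3.05 CPM in G-NHX9-midi and 3.91 ± 1.23 in G-NHX9-midi-21FGAA and fell by 2.33 (SE 0.248, adjusted p = 2.9e-09). Cth, the cystathionine lyase that makes cysteine from a serine-derived intermediate, was at 27.7 ± 7.30 CPM in G-NHX9-midi and 1.25 ± 1.22 in G-NHX9-midi-21FGAA, a fall of 4.46 (SE 0.711, adjusted p = 4.8e-06). Between G-NHX9-midi and G-NHX9 it rose by 2.13 (SE 0.633, adjusted p = 0.015).

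Other genes of this list are given for a comparison in which the rule for naming genes picked them. The neutral amino acid carrier Slc1a4 fell by 1.24 in G-NHX9-DDNA against G-NHX9 (SE 0.197, adjusted p = 1.4e-05). Ahcy, which hydrolyses S-adenosylhomocysteine, fell by 0.75 in G-NHX9-8FA against G-NHX9 (adjusted p = 0.0021), where Mthfs rose by 0.64 (adjusted p = 0.0069). Mthfd2l, the close relative of Mthfd2, rose by 0.74 in G-NHX9-midi against G-NHX9 (SE 0.153, adjusted p = 0.00059). Rrm2, a subunit of ribonucleotide reductase, was at 139.4 ± 15.9 CPM in G-NHX9-21FGAA and 73.7 ± 24.0 in G-NHX9-8FA and rose by 0.92 (adjusted p = 0.00072). Atic, of purine synthesis, and Dctd, a deaminase of deoxycytidylate, rose in G-NHX9-midi against G-NHX9-8FA by 0.42 (adjusted p = 0.045) and 0.65 (adjusted p = 0.019).

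Levels of cell type markers differed between the same groups. In the pooled comparison, where 53.0% of all genes were called, all 14 erythroid markers tested, 9 of 9 mast cell and basophil markers and 6 of 7 eosinophil markers were lower in G-NHX9, G-NHX9-8FA and G-NHX9-midi. The summed erythroid level ranged from 117.6 to 806.3 CPM in those 15 libraries and from 618.5 to 2220 in the other construct libraries. The summed mast cell and basophil level ranged from 428.8 to 876.5 CPM and from 2583 to 6362 CPM, and the eosinophil level from 42.12 to 978.8 and from 739.1 to 2489 CPM. Of 11 late neutrophil markers 7 were higher and 3 lower, of 4 early granule markers 3 were higher, of 10 macrophage markers 1 was higher and 1 lower, and of 13 stem and progenitor markers 5 were higher and 5 lower. The summed level of the 10 macrophage markers was 3203 ± 405 CPM in Empty and between 1923 and 2668 on average with the constructs, and it had an r of -0.79 with Shmt1. That r includes the Empty libraries, on which the choice of Shmt1 rested. Over the 35 libraries the mast cell and basophil sum had an r of -0.82 with Psph and -0.75 with Phgdh, and the erythroid sum of -0.79 with Mthfd2. With group means removed these were -0.02, 0.24 and -0.31. The late neutrophil sum had an r of 0.50 with Phgdh, 0.42 with Psat1, 0.55 with Psph, 0.49 with Mthfd2 and 0.35 with Shmt2. With group means removed these were 0.38, 0.49, 0.46, 0.35 and 0.11. With Mthfd1l, Shmt1, Mthfd1 and Tyms it was -0.09, 0.21, -0.46 and -0.34 (0.05, 0.04, -0.44 and 0.02 with group means removed). Within groups the erythroid sum had an r of 0.75 with Mthfd1, 0.70 with Tyms, 0.67 with Shmt1 and 0.62 with Mthfd1l, and the macrophage sum of -0.69 with Tyms, -0.67 with Mthfd1l, -0.61 with Shmt1 and -0.52 with Shmt2. The part of these cell types in the members' differences was not tested.

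Some counts may miss reads that genes share. Exons of Psph overlapped those of Cct6a on the other strand by 452 bases, exons of Shmt1 those of Smcr8 by 184 bases, those of Mthfd1 a predicted gene by 37 bases and those of Shmt2 Ndufa4l2 by 32 bases, and whether strand was used in counting is not given in the sources used here. The processed pseudogene Phgdh-ps1 held at most 5 counts in a library.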

How the data were processed

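Total RNA of 35 libraries of lin- HSPCs, 5 for each of 7 groups, was sequenced with a stranded total RNA kit. The authors deposited raw counts of reads per gene for mm10 without normalization. The submitters' processing notes name STAR 2.7.0d, HTSeq 0.11.2 and DESeq2, and the strand setting is not given in the sources used here. The methods speak of triplicates, whereas 5 libraries per group were deposited and used.

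Tests used edgeR 4.0.16 (R 4.3.3). filterByExpr kept 17166 of 49671 genes, which held 99.96% of the counts, TMM factors ran from 0.8988 to 1.11, and a quasi-likelihood model with a mean per group was fitted to all libraries. Adjustment of p-values followed Benjamini and Hochberg over all genes tested (threshold 0.05). CPM are TMM-scaled, and for correlations their log2 was taken with 2 as prior count. The members and lists were chosen with earlier results of these data known. Genes of the lists were named where they were among the 2 largest changes of a comparison between constructs past the threshold, averaged 5 CPM or more and did not overlap between groups. Positions are from GENCODE M21 (GRCm38), in which 7 of the 9 members were found with the same version. Figures were drawn in Python 3.11.15 with matplotlib 3.10.9.

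Every pair of libraries of a group differed by more than sampling noise (lowest chi-square per degree of freedom 24.7 over 70 pairs). Xist was above 10 CPM in all 35 libraries, so each held cells of female mice. Nothing says that libraries came from separate animals, so p-values measure the spread between these libraries. Whether the replicate numbers pair libraries was checked on their deviations from group means. The mean correlation was 0.232 for the same number and -0.057 for others, and all 5 pairs exceeded 0.1 in 5 of 13 comparisons (G-NHX9, G-NHX9-midi-21FGAA and G-NHX9-DDNA against Empty, and G-NHX9-21FGAA and G-NHX9-DDNA against G-NHX9). Alternatives were no TMM, RLE size factors, genes unfiltered, genes kept from a mean of 1 CPM, only the groups compared, the number as a block, Xist as a covariate, DESeq2 1.42.0, and each library left out. Fits of libraries 1 to 3 and of 4 and 5 were added after the data were seen. The procedure was also run on simulated counts with a fixed spread and no differences between replicate numbers, and nothing is read from that run.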

Additional observations from a re-analysis of the deposited data

Results flagged for a closer look

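Of 63 sets of 5 libraries (9 members in 7 groups) tested for a library far from the others by Dixon's test, 1 stood out, whereas chance gives about 1 in 20. It was Mthfd1l in G-NHX9-midi-21FGAA replicate 4, at 52.18 CPM against 44.14 to 46.30 CPM in the other 4 libraries of its group. The effect of the 21FGAA changes differed between the full-length and the shortened fusion for 3 members in edgeR's test of the difference. The difference was 0.818 for Phgdh (adjusted p = 0.028), 0.809 for Psph (adjusted p = 0.026) and 0.938 for Mthfd2 (adjusted p = 0.025) on the log2 scale. None of these calls remained without G-NHX9 replicate 4, and libraries 1 to 3 alone called 1 of the 3 (11.0% of all genes). Libraries 4 and 5 alone called 4 members (5.06%), these 3 and Psat1 (0.906, adjusted p = 0.045 in edgeR's test).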

How the results depend on the processing

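Over 8 other settings, 1062 of 1080 member fold changes kept their direction and their side of the threshold, 8 lost and 10 gained a call and 0 were reversed. Sign changes of values called in neither fit were not counted. Leaving out 1 library kept 1562 of 1620, lost 41 and added 17. Library sizes without TMM gave a median log2 fold change of all genes of up to 0.186, in G-NHX9 against Empty, where it was 0.006 with TMM. With the replicate number as a block 1 member in place of 0 was called between G-NHX9-midi and G-NHX9 (Mthfd2, 0.52), where the numbers did not pair the libraries by the limit set, and 4 in place of 3 between G-NHX9-21FGAA and G-NHX9. Apart from Mthfd2 and Mthfd1 there, the block changed no call. Of the 35 libraries, 24 correlated best with those of their own number. In the fit of the groups compared alone, 1 member in place of 0 was called between G-NHX9-midi and G-NHX9-8FA.

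With 1 library left out, called members ranged from 2 to 4 for G-NHX9-8FA against G-NHX9 (4 without G-NHX9-8FA replicate 5), from 0 to 1 for G-NHX9-midi against G-NHX9 and from 2 to 5 for G-NHX9-21FGAA against G-NHX9 (5 without G-NHX9 replicate 5 or G-NHX9-21FGAA replicate 1). For the difference of the 21FGAA effects they ranged from 0 to 3.

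In libraries 1 to 3 the called members numbered 7 for G-NHX9-8FA (11.0% of all genes called) and 6 for G-NHX9-21FGAA (15.9%) against G-NHX9. They numbered 3 for G-NHX9-21FGAA (25.0%) and 6 for G-NHX9-midi (13.3%) against G-NHX9-8FA. For the difference of the 21FGAA effects the number was 1 (11.0%). In libraries 4 and 5 they numbered 7 for G-NHX9-8FA (25.0% of all genes called), 3 for G-NHX9-midi-21FGAA (14.7%) and 0 for G-NHX9-DDNA (0.0760%) against Empty, from which nothing is read as the choice of members used these contrasts. Against G-NHX9 the called members in libraries 4 and 5 were 3 for G-NHX9-midi (17.4%), 1 for G-NHX9-21FGAA (10.3%) and 1 for G-NHX9-DDNA (11.1%). Of the 135 member values, libraries 1 to 3 reversed 1, Psph in G-NHX9-8FA against G-NHX9 (-0.594), and libraries 4 and 5 reversed 1, Mthfd2 in G-NHX9-DDNA against G-NHX9 (0.104). These fits hold fewer libraries, and the cause was not tested. The comparison of G-NHX9-midi-21FGAA with G-NHX9-midi and the pooled one kept their counts within 1.5 times in every fit. At depths over 31559914 counts, the spread between libraries and not counting limits the members.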
